A study of Mus musculus with 6 samples.

Results

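The genes described here are 10 genes that set the pace of the G1 phase of the cell cycle. They are the D cyclins Ccnd1, Ccnd2 and Ccnd3, the E cyclins Ccne1 and Ccne2, the kinases Cdk2, Cdk4 and Cdk6, and the inhibitors Cdkn1b and Cdkn2c, which encode p27 and p18. They were chosen by gene symbol, and each matched 1 of the 57508 rows of the deposited tables. Expression was measured by RNA sequencing in KPC1199 cells, a mouse line that the labels call pancreatic tumour cells, in 3 ACSL5 knockdown libraries and 3 WT libraries. The knockdown libraries are called KO in their titles and knockdown in their genotype field. Library names of both groups begin with siACSL5 and differ in a suffix that the labels do not explain. The labels give no time, dose or passage, and all libraries come from a single line. They do not name separate cultures either, so p-values measure the spread between libraries, which may be technical.

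D cyclins are made in response to growth signals and bind CDK4 and CDK6, and these complexes begin the phosphorylation of the retinoblastoma protein RB. RB then releases E2F transcription factors, whose targets include the E cyclins, and cyclin E with CDK2 completes the step into S phase. p18 belongs to the INK4 inhibitors, which bind CDK4 and CDK6, while p27 binds cyclin-CDK complexes and is best known as a brake on CDK2. In pancreatic ductal adenocarcinoma this route is often altered by loss of the INK4 inhibitor p16.

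Library totals ran from 21794201 to 29996160 expected counts, and those of the 10 genes from 431 for Ccne2 to 21316 for Cdk6. Acsl5, the targeted gene, stood at 49.7, 55.6 and 57.2 CPM (counts scaled to library size with TMM factors) in knockdown replicates 1, 2 and 3, against 341.9, 265.0 and 269.9 CPM in WT replicates 1, 2 and 3 (two-sided exact permutation p = 0.1, the smallest that 3 against 3 libraries allow). All knockdown libraries were far below all WT libraries, at -2.43 on the log2 scale (SE 0.167, adjusted p = 0.0619 in edgeR) over 6 libraries and -2.32 (SE 0.064, adjusted p = 5.95e-08) over the 5 without WT replicate 1. WT replicate 1 stood apart. Its share of counts from ribosomal protein genes was 9.74%, where the other 5 libraries had 3.71% to 4.37%, and its difference from WT replicates 2 and 3 had a median size of 0.56 on the log2 scale over all genes tested. Fold changes are therefore given with all 6 libraries and with the 5 that remain without WT replicate 1. All 6 epithelial markers looked up (Krt7, Krt8, Krt18, Krt19, Epcam and Cdh1) were above 1 CPM in every library, with sums of 7215 to 7391 CPM in knockdown and 6968 to 13139 CPM in WT libraries. The 6 acinar markers summed to 0.55 to 0.96 CPM in knockdown and 0.78 to 3.33 CPM in WT libraries, with Cpb1, Ctrb1 and Pnlip at 0. The leukocyte markers summed to 4.82 to 5.34 CPM in knockdown and 4.09 to 4.43 CPM in WT libraries, with Cd3e at 0. The 5 endothelial markers summed to 3.40 to 3.72 CPM in knockdown and 2.14 to 3.76 CPM in WT libraries, with Cdh5 and Tek at 0. Of 6 fibroblast markers, Col1a1, Col3a1, Pdgfra and Pdgfrb were above 1 CPM in every library and Lum was at 0, with sums of 292.0 to 311.3 CPM in knockdown and 225.0 to 368.2 CPM in WT libraries. The part of these markers in the results was not tested.

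All 10 genes were expressed and tested. Without WT replicate 1, the cyclin genes Ccnd2 and Ccnd3 fell in knockdown cells (log2 fold changes of -0.15 and -0.32), the kinase gene Cdk4 rose (0.23), and the other 7 genes were not called (edgeR, adjusted p below 0.05). Across all genes 34.3% were called in that fit, 16.3% higher and 18% lower, so 3 of 10 lies near the background. An unadjusted p below 0.05 was found for 4 of the 10 genes and 44% of all genes in that fit. All knockdown libraries lay above WT replicates 2 and 3 for 5 of the 10 genes and below them for 3, where 30.4% and 29.4% of all genes did so. With all 6 libraries none of the 10 was called, and neither was any other gene (0 of 14679, 0%). In that fit 2 of the 10 genes, Cdkn1b and Ccnd3, had an unadjusted p below 0.05, which 16% of all genes had. All knockdown libraries lay above all WT libraries for 2 of the 10 genes and below them for 2. The shares over all genes were 18.7% and 15.6%. DESeq2 and limma-voom also called 0 of the 10 over 6 libraries, although they called 1127 (7.68%) and 9 (0.0613%) of all genes, and edgeR after removal of each library's trend with GC content called 0 of the 10 and 3 genes (0.0204%) in all. Without WT replicate 1, DESeq2 and limma-voom each called 4 of the 10 genes, beside 32.3% and 33.5% of all genes, and the fit with the GC trend removed called 3, beside 31.5%. With limma-voom quality weights, which give a deviating library less weight, 3 of the 10 were called over 6 libraries and 4 over 5, beside 40.2% and 39.4% of all genes. The log2 fold changes of the 10 genes had a median of 0.05 and a median size of 0.17 without WT replicate 1, where all genes had -0.01 and 0.24. With 6 libraries the values were 0.06 and 0.18, against -0.02 and 0.31 over all genes. Since the cells were sequenced in bulk, a change in the share of cells in a phase and a change in RNA per cell cannot be told apart.

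**Figure D1:**
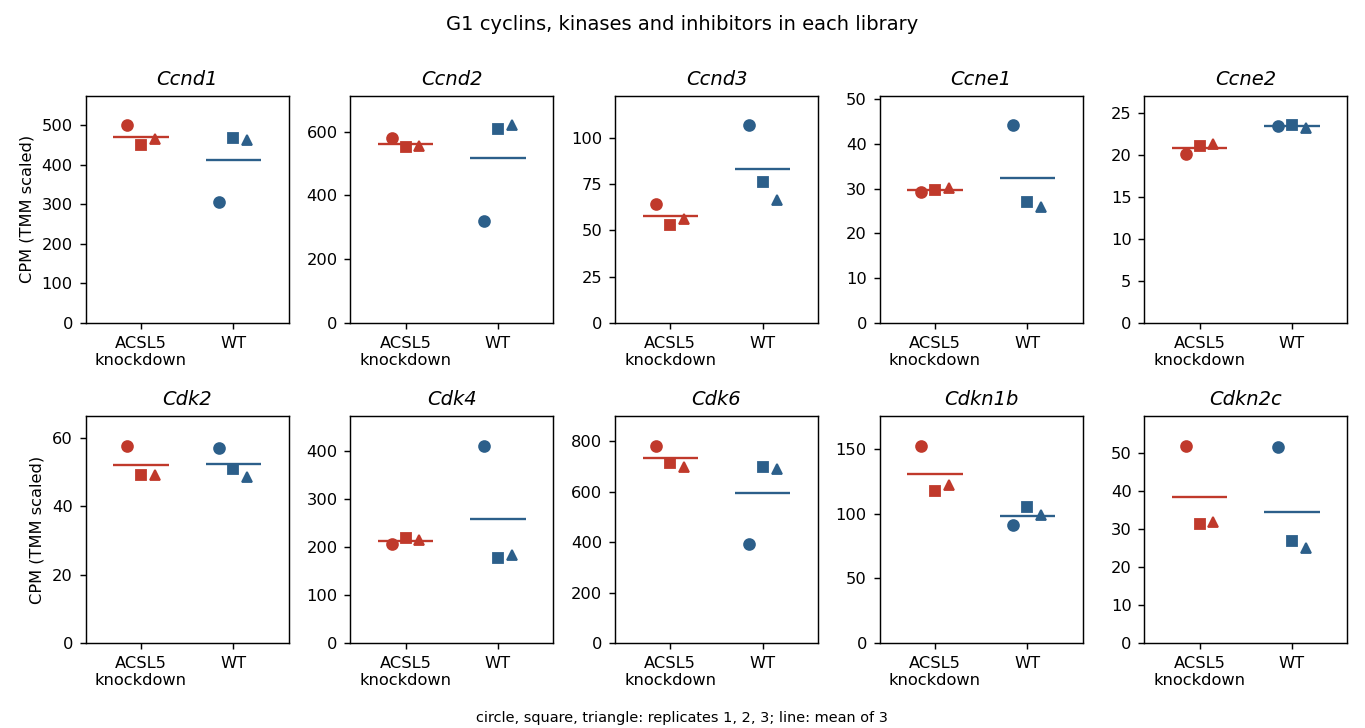
CPM of each of the 10 genes (vertical axis, from 0) in the 3 ACSL5 knockdown libraries and the 3 WT libraries, with the group mean as a line. Circles, squares and triangles are replicates 1, 2 and 3. WT replicate 1 is the lowest library for Ccnd1, Ccnd2, Cdk6 and Cdkn1b and the highest for Ccnd3, Ccne1 and Cdk4.

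Among the D cyclins, Ccnd1 (chr7:144929931-144939925, GRCm38, as for all positions of genes) was the most abundant per length and was not called. It had 203.7, 190.1 and 195.2 TPM (a transcript level scaled for length and depth) in knockdown replicates 1 to 3, against 67.5, 194.3 and 191.4 TPM in WT replicates 1 to 3. Apart from the low WT replicate 1, the groups overlapped and all libraries lay between 190.1 and 203.7 TPM. In counts the log2 fold change was 0.002 (SE 0.049, adjusted p = 0.984 in edgeR) without WT replicate 1 and 0.19 (SE 0.207, adjusted p = 0.647) with it.

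Ccnd2 (chr6:127125162-127152193), which has a 3' UTR of 5173 bases, was slightly lower in knockdown cells. It had 579.8, 551.8 and 553.7 CPM in knockdown replicates 1 to 3, and 320.4, 609.4 and 620.4 CPM in WT replicates 1 to 3. The knockdown libraries were below WT replicates 2 and 3 and above WT replicate 1. Its log2 fold change was -0.15 (SE 0.041, adjusted p = 0.0195 in edgeR) without WT replicate 1 and 0.12 (SE 0.276, adjusted p = 0.84) with it, so the sign rests on that library. The fit of 5 libraries called it in 9 of 20 alternatives. The call was lost with library totals (adjusted p = 0.0604 in edgeR), in the 3 fits on TPM (0.0879 to 0.0969 in limma) and at a threshold of 0.01. Removal of the gene length trend (-0.07, adjusted p = 0.154) or the GC trend (-0.06, adjusted p = 0.241) also lost it. So did leaving out knockdown replicate 2 or 3 as well (adjusted p of 0.118 and 0.0832). Leaving out WT replicate 2 or 3 as well, which leaves a single WT library, gave -0.16 and -0.14 and no call.

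Ccnd3 (chr17:47505051-47599691) showed the larger decrease. Its level was 64.1, 52.6 and 56.0 CPM in knockdown replicates 1 to 3, against 106.7, 75.9 and 66.4 CPM in WT replicates 1 to 3. Every knockdown library was below every WT library in CPM, as for 15.6% of all genes tested, while in TPM the groups overlapped, with 52.8 to 57.1 TPM in knockdown and 54.2 to 84.0 TPM in WT libraries. The mean was 57.6 ± 5.92 CPM in knockdown cells (SD, n = 3) and 83.0 ± 21.0 CPM in WT cells (SD, n = 3). On the log2 scale the difference was -0.32 (SE 0.089, adjusted p = 0.0235) without WT replicate 1 and -0.53 (SE 0.212, adjusted p = 0.303) with it. The sign was negative in all 21 alternatives to the fit of 6 libraries and all 20 to the fit of 5, and 13 of the 20 called it. Without WT replicate 1 the call was lost in the 3 fits on TPM and when knockdown replicate 2, knockdown replicate 3 or WT replicate 2 was also left out, with adjusted p of 0.0645 to 0.17.

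Of the summed TPM of the D cyclins, Ccnd3 held 14.4%, 13.9% and 14.5% in knockdown replicates 1 to 3, against 32.5%, 19.5% and 16.1% in WT replicates 1 to 3. Ccnd1 held 49.9% to 51.2% in the knockdown libraries and 40.5% to 47.1% in the WT libraries. The groups did not overlap in either share, but they did in the share of Ccnd2. The sum itself was 380.8 to 397.6 TPM in knockdown libraries, against 430.6 and 406.7 TPM in WT replicates 2 and 3 and 166.7 TPM in WT replicate 1.

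The E cyclins, which bind CDK2 late in G1, were lower than the D cyclins per length, and neither was called. Their summed level was 36.9 to 40.4 TPM in knockdown and 27.4 to 43.5 TPM in WT libraries. Ccne1 (chr7:38097984-38107534) was at 29.2, 29.6 and 30.3 CPM in knockdown replicates 1 to 3, against 44.2, 26.9 and 25.9 CPM in WT replicates 1 to 3. The knockdown libraries were close to each other and lay between WT replicate 1 and the other 2. Its log2 fold change was 0.15 (SE 0.074, adjusted p = 0.14) without WT replicate 1 and -0.12 (SE 0.232, adjusted p = 0.802) with it.

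Ccne2 (chr4:11191351-11204779) was at 20.1, 21.1 and 21.4 CPM in knockdown replicates 1 to 3, against 23.5, 23.6 and 23.3 CPM in WT replicates 1 to 3. It was the only one of the 10 genes in which WT replicate 1 lay between the other WT libraries. Every knockdown library was below every WT library in CPM, as for 15.6% of all genes tested. Fitted values were -0.17 (SE 0.114, adjusted p = 0.483 in edgeR) with all 6 libraries and -0.18 (SE 0.082, adjusted p = 0.116) without WT replicate 1. In TPM the groups overlapped, with 14.8, 11.9 and 15.1 TPM in knockdown replicates 1 to 3 and 6.79, 17.7 and 17.0 TPM in WT replicates 1 to 3.

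Of the kinases, Cdk4 (chr10:127063534-127067920) was called and Cdk2 and Cdk6 were not. Cdk4 had 207.1, 218.6 and 214.8 CPM in knockdown replicates 1 to 3, and 411.2, 176.6 and 184.4 CPM in WT replicates 1 to 3. The knockdown libraries were above WT replicates 2 and 3 and far below WT replicate 1. Its log2 fold change was 0.23 (SE 0.048, adjusted p = 0.00461 in edgeR) without WT replicate 1, a rise of 1.17-fold, and -0.27 (SE 0.352, adjusted p = 0.709) with it. In the fit of 5 libraries it was called in 16 of 20 alternatives, more often than any other of the 10 genes, and was lost in the 3 fits on TPM and without WT replicate 2 (adjusted p of 0.0861 to 0.458). In TPM knockdown replicate 1 overlapped WT, with 193.5, 221.2 and 225.6 TPM in knockdown replicates 1 to 3 and 361.2, 178.3 and 204.0 TPM in WT replicates 1 to 3.

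Cdk6 (chr5:3341485-3531008), the other kinase of D cyclins, had the largest counts of the 10 genes and was not called. It had 782.5, 715.1 and 697.6 CPM in knockdown replicates 1 to 3, against 394.1, 697.1 and 691.3 CPM in WT replicates 1 to 3. The groups did not overlap, which held for 18.7% of genes in this direction, but knockdown replicate 3 and WT replicate 2 nearly coincided. The fitted log2 fold change was 0.06 (SE 0.05, adjusted p = 0.39) without WT replicate 1 and 0.30 (SE 0.253, adjusted p = 0.565) with it. Cdk2 (chr10:128697939-128705031), the partner of cyclin E, had 57.7, 49.1 and 49.2 CPM in knockdown replicates 1 to 3 and 57.1, 51.0 and 48.5 CPM in WT replicates 1 to 3, and the groups overlapped. Its log2 fold change was 0.05 (SE 0.075, adjusted p = 0.67) without WT replicate 1 and -0.005 (SE 0.139, adjusted p = 0.987) with it.

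The promoters of Cdk4 and Cdk6 are shown because the kinases share cyclin partners but differed in the call. Without WT replicate 1 Cdk4 was called and Cdk6 was not, and with all 6 libraries neither was (log2 fold changes of -0.27 and 0.30). RefSeq promoters (GRCm38.p6, windows mostly upstream of the start site) were found for 7 of the 10 genes. Both lie on the plus strand, Cdk4 at chr10:127063285-127063584 and Cdk6 at chr5:3343643-3343942, and capitals mark CACGTG, the E-box that MYC binds with its partner MAX, which reads the same on both strands.
Cdk4: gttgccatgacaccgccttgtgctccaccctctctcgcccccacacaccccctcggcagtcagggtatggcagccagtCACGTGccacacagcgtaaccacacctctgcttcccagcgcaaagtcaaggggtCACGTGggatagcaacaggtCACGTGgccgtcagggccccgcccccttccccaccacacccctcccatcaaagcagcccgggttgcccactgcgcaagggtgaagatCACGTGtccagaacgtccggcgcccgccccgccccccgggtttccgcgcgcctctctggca
Cdk6: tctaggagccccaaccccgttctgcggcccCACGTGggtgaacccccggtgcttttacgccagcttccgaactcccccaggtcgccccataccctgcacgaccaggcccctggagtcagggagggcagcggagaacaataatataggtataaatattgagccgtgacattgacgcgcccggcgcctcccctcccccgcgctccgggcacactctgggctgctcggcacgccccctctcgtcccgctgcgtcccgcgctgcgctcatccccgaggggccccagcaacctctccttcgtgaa
The Cdk4 window holds 4 E-boxes and the Cdk6 window 1, and of the other 5 genes with a promoter only Cdkn2c, which was not called, has 1 in a window of its own. Of 32851 promoters of this length, 7.15% hold at least 1 E-box, and 8 promoters (0.0244%) hold at least 4. The cut of 4 was taken from the Cdk4 window itself, so this share gives no independent evidence. Motifs called CRE, AP-1, FOXO and GC box were also looked up. CRE, AP-1 and FOXO were in neither window. The GC box (GGGCGG on either strand) had 3 matches for Cdk4 and 0 for Cdk6, and 35.7% of all promoters hold it. The E2F motif (TTTCCCGC, TTTCGCGC, TTTGCCGC or TTTGGCGC on either strand) was found once in the Cdk2 window and in none of the other 6 genes, against 2.26% of all promoters. A match describes letters in the window and is no measure of binding. Myc itself, chosen after its values were seen, rose by 0.79 (SE 0.067, adjusted p = 2.3e-05 in edgeR) without WT replicate 1 and was at 0.49 (adjusted p = 0.385) with it. Whether MYC acts on Cdk4 in these cells was not tested.

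**Figure D2:**
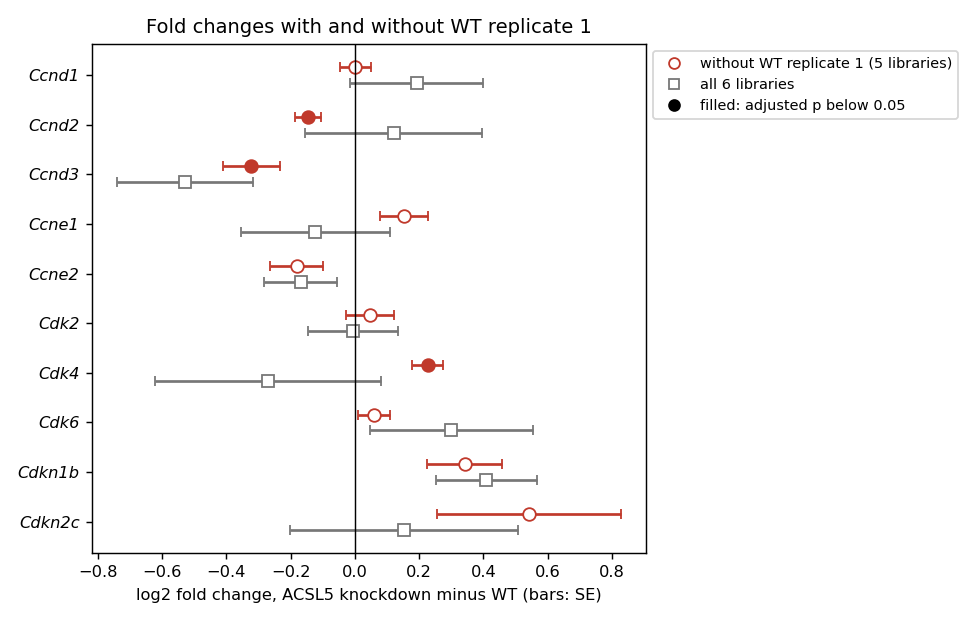
Log2 fold change (ACSL5 knockdown minus WT, horizontal axis) of the 10 genes without WT replicate 1 (circles) and with all 6 libraries (squares), with SE as bars and filled symbols for an adjusted p below 0.05. Ccnd2, Ccnd3 and Cdk4 are filled without WT replicate 1 and none is filled with it, and Ccnd2, Ccne1, Cdk2 and Cdk4 change sign between the fits.

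The inhibitors had the highest log2 fold changes of the 10 genes without WT replicate 1, although neither was called in the fit of 5 libraries. Cdkn1b (chr6:134920401-134925513), which encodes p27, had 152.6, 117.7 and 121.8 CPM in knockdown replicates 1 to 3, against 91.2, 105.1 and 98.8 CPM in WT replicates 1 to 3. All knockdown libraries were above all WT libraries, as for 18.7% of all genes tested. The mean was 130.7 ± 19.0 CPM in knockdown cells and 98.4 ± 6.97 CPM in WT cells (SD, n = 3 each). Knockdown over WT, the log2 value was 0.41 (SE 0.156, adjusted p = 0.282 in edgeR) with all 6 libraries and 0.34 (SE 0.117, adjusted p = 0.0749) without WT replicate 1. Of the 20 alternatives to the fit of 5 libraries, 10 called it, among them DESeq2 (adjusted p = 0.00888), limma-voom (0.0381) and removal of the GC trend (0.47, adjusted p = 0.0336), with adjusted p from 3.54e-08 to 0.315 over all 20.

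Knockdown replicate 1 was the highest library for Cdkn1b and lay 0.35 above the mean of knockdown replicates 2 and 3 on the log2 scale, where the median size over all genes was 0.11. Without that library and WT replicate 1, the log2 fold change of Cdkn1b was 0.23 with an adjusted p of 0.000553, a smaller difference with less spread.

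Cdkn2c (chr4:109660876-109667189), which encodes p18, had 51.9, 31.4 and 31.7 CPM in knockdown replicates 1 to 3, against 51.5, 26.9 and 25.1 CPM in WT replicates 1 to 3. Replicate 1 of each group was high and the other libraries of both groups were low, with knockdown replicates 2 and 3 above WT replicates 2 and 3. Fitted log2 fold changes were 0.54 (SE 0.287, adjusted p = 0.247) without WT replicate 1 and 0.15 (SE 0.355, adjusted p = 0.841) with it. Leaving out knockdown replicate 1 as well gave 0.28 with an adjusted p of 0.00558, and then Cdkn1b, Cdkn2c, Ccnd2, Ccnd3 and Cdk4 were all called, where 41.4% of all genes were.

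In TPM, Cdkn1b stood at 2.26, 1.94 and 2.03 times the level of Cdk2 in knockdown replicates 1 to 3, against 1.28, 1.47 and 1.49 times in WT replicates 1 to 3. The groups did not overlap in this ratio, WT replicate 1 included, nor did they in the TPM of Cdkn1b alone. In the ratios of E cyclins to Cdk2, Ccnd2 to Ccnd1 and Cdk6 to Cdk4, also looked at, they overlapped. The ratio of Cdkn2c to the sum of Cdk4 and Cdk6 was 0.138, 0.118 and 0.0998 in knockdown replicates 1 to 3, against 0.108, 0.127 and 0.106 in WT replicates 1 to 3, and there the groups overlapped. D cyclins stood at 1.3, 1.18 and 1.19 times the sum of Cdk4 and Cdk6 in knockdown replicates 1 to 3, against 0.428, 1.58 and 1.36 times in WT replicates 1 to 3. WT replicate 1 was lowest in that ratio and WT replicates 2 and 3 were highest.

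**Figure D3:**
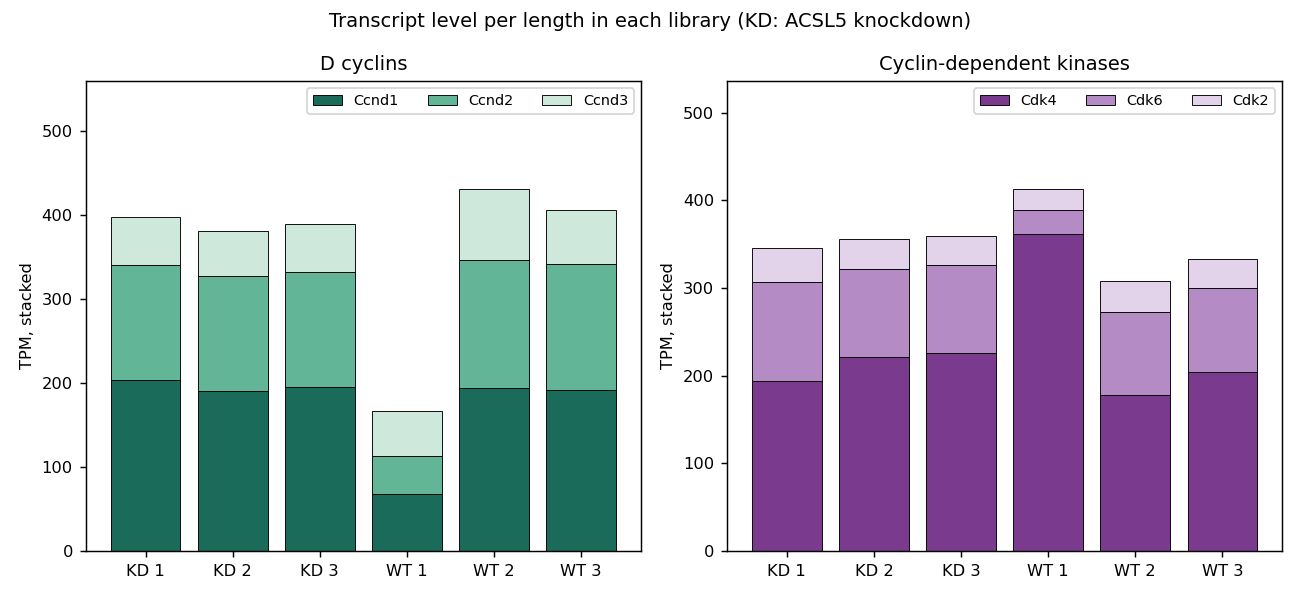
TPM of the D cyclins (left) and of the kinases (right) stacked for each library (vertical axis, from 0), with ACSL5 knockdown libraries to the left of WT libraries. In WT replicate 1 the D cyclins sum to 166.7 TPM and Cdk4 makes up 87.6% of the kinase TPM, whereas it makes up 56.0% to 62.7% in the other 5 libraries.

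TPM and counts differ by the length that the authors' quantification gave each gene in each library. Dividing a count by its TPM recovers that length up to a scale and an offset. Both were set in each library on 481 to 631 genes with a single annotated transcript. The known lengths of these same genes were returned with a median error of at most 0.03%, which is no independent check. Cdk6 is longer than the genes used, so its length is extrapolated. For Cdk6 the implied length was 9940, 10633 and 10478 bases in knockdown replicates 1 to 3, against 11139, 10850 and 10650 bases in WT replicates 1 to 3. These values are near the annotated transcript of 11525 bases, with a 3' UTR of 10217 bases, while the deposited length column gives 2470 bases for the gene. Cdk6 had the most counts of the 10 genes in the 5 libraries other than WT replicate 1, yet fewer TPM than Cdk4, Ccnd1 and Ccnd2 in every library.

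For Cdkn2c the implied length was 2023, 1474 and 1667 bases in knockdown replicates 1 to 3, against 1197, 1376 and 1392 bases in WT replicates 1 to 3. All knockdown values were above all WT values, between the 1106 and 2471 bases of the annotated transcripts, which start at separate sites and each have a 3' UTR of 373 bases. The shift, 0.31 on the log2 scale without WT replicate 1, was larger in size than that of 97.0% of 11332 genes compared. The log2 fold change of Cdkn2c was 0.17 in log2(TPM + 1), against 0.54 in counts.

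For Cdkn1b the length was 2736, 2856 and 2824 bases in knockdown replicates 1 to 3, against 2612, 3176 and 3078 bases in WT replicates 1 to 3. Without WT replicate 1 the shift was -0.16, and the log2 fold change was 0.53 in log2(TPM + 1), where counts gave 0.34. For Ccne1 the lengths were 2000, 1994 and 1991 bases in knockdown replicates 1 to 3 and 1907, 1762 and 1711 bases in WT replicates 1 to 3. This shift was 0.20, larger in size than in 92.3% of genes, and the log2 fold change of Ccne1 was -0.05 in log2(TPM + 1), against 0.15 in counts. For Ccne2 the shift was 0.16, larger in size than in 89.0% of genes, but the groups overlapped. Its lengths were 2207, 2866 and 2314 bases in knockdown replicates 1 to 3 and 2921, 2168 and 2229 bases in WT replicates 1 to 3. Which transcripts stood behind these lengths was not tested. WT replicate 1 was the shortest WT library for Ccnd2, Cdk2, Cdk4, Cdkn1b and Cdkn2c.

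**Figure D4:**
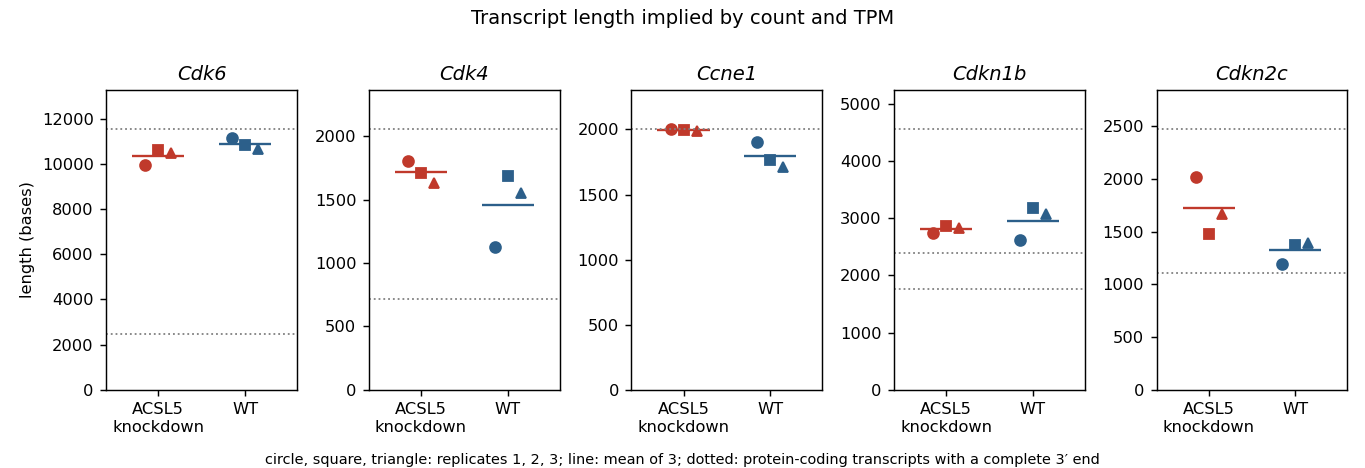
Transcript length in bases (vertical axis, from 0) that count and TPM imply for 5 of the genes in the 3 ACSL5 knockdown and 3 WT libraries, with dotted lines at annotated protein-coding transcripts with a 3' UTR. Cdk6 lies near its transcript of 11525 bases, and the knockdown libraries are longer than the WT libraries for Ccne1 and Cdkn2c.

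A sequence of 7 bases, GAACTAC or its shifted form AACTACA, was picked from earlier results of these same fold changes, so it gives no independent evidence. It was looked up in the longest annotated 3' UTR (GENCODE M21) of the 10 genes and of Acsl5. The sites found, on chromosomes 19 (Acsl5), 4 (Ccne2) and 5 (Cdk6), are shown with the match in capitals.
Acsl5: cacatacccacAACTACAacactcaggagg
Ccne2: atcaaattaaaAACTACAgaaaaaaatggc
Cdk6, first site: acacgcacataAACTACAagtgcaaactct
Cdk6, second site: tgagctacaatAACTACAgtttgctcacta
The other 8 genes, Ccnd2 and Ccnd3 among them, have neither form there, and 11.4% of 20661 genes have at least 1. Ccne2 was lower in all knockdown libraries without being called, and Cdk6 was higher.

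Genes around the 10 were grouped by role. With 6 libraries 0 genes of any of these lists were called by edgeR, as over all genes, so the counts below are those without WT replicate 1. In that fit 45 of the 100 list genes tested were called, where 34.3% of all genes were, 16.3% higher and 18% lower, and each list's count stands against these shares. Of 5 further CDK inhibitors, 1 rose and 0 fell, with a median of 0.48, which turned to -0.17 with 6 libraries. The median of 0.48 includes Cdkn1c, at 0.81 (SE 0.681) with a mean of only 0.364 CPM over 6 libraries. Once the GC trend was removed the median was 0.16, with 1 higher and 1 lower. The riser was Cdkn2d, which encodes the INK4 inhibitor p19, at 24.4, 21.7 and 24.0 CPM in knockdown replicates 1 to 3, against 46.2, 17.2 and 15.7 CPM in WT replicates 1 to 3. It was at 0.49 on the log2 scale (adjusted p = 0.00266 in edgeR) without WT replicate 1 and -0.17 (adjusted p = 0.853) with it. Like Cdk4, it was highest in WT replicate 1.

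Of 13 RB family, E2F and DP genes, 1 rose and 3 fell, with a median of -0.06, or 0.05 with 6 libraries. Rb1, which encodes RB itself, was at -0.41 (adjusted p = 0.00454) without WT replicate 1 and -0.21 (adjusted p = 0.61) with it. E2f5, a repressor-type E2F, had 12.8 to 15.3 CPM in the knockdown libraries, against 32.8, 23.2 and 22.7 CPM in WT replicates 1 to 3. The groups were well separated, with log2 fold changes of -0.76 (adjusted p = 3.91e-04) without WT replicate 1 and -0.94 (adjusted p = 0.129) with it. E2f6, an RB-independent repressor, was at 0.38 and 0.36 in these fits.

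Of 7 genes of CDK activation and tyrosine phosphorylation, 1 rose and 0 fell, with a median of -0.11, or -0.25 with 6 libraries. The riser was Pkmyt1, a kinase that holds back CDK1, at 0.39 (adjusted p = 0.00675), and it was at -0.08 once the GC trend was removed (adjusted p = 0.406). With 6 libraries Pkmyt1 was at 0.44 (adjusted p = 0.222). Of 11 genes of cyclin and p27 turnover, 1 rose and 3 fell, with a median of -0.06, or -0.14 with 6 libraries. Fbxo31, an F-box protein that directs cyclin D1 to degradation, was at 0.52 (adjusted p = 0.00128), and Fbxo4, assigned the same role, was at -0.38 (adjusted p = 0.0252). Cul1, the scaffold of these ligases, was at -0.35 (adjusted p = 4.18e-04), or -0.22 once the GC trend was removed. With 6 libraries Fbxo31 was at 0.58 (adjusted p = 0.138), Fbxo4 at -0.89 (adjusted p = 0.315) and Cul1 at -0.26 (adjusted p = 0.393). Counted after that removal, 3 of the 11 rose and 3 fell.

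Of 12 transcription factors known to act on D cyclin or p27 genes, 4 rose and 3 fell, with a median of 0.15, or 0.29 with 6 libraries. Jun had 32.3, 18.1 and 18.2 CPM in knockdown replicates 1 to 3, against 7.31, 9.12 and 7.75 CPM in WT replicates 1 to 3, and knockdown replicate 1 was again the highest. Its log2 fold change was 1.42 (adjusted p = 0.0455) without WT replicate 1, and 1.35 once the GC trend was removed (adjusted p = 0.0632). The AP-1 partner Fosl1 was at 0.83 (adjusted p = 0.017), Fos at -0.54 (adjusted p = 0.0138) and Creb1 at -0.29 (adjusted p = 0.00285). With 6 libraries Jun was at 1.5, Fosl1 at 0.58, Fos at -0.42 and Creb1 at -0.10, with adjusted p from 0.116 for Jun to 0.823 for Creb1.

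Of 20 E2F targets of S phase entry, 5 rose and 3 fell, with a median of -0.03, or -0.06 with 6 libraries. Cdt1, which loads the replicative helicase, had 60.3, 47.0 and 52.8 CPM in knockdown replicates 1 to 3, against 36.6, 25.6 and 24.7 CPM in WT replicates 1 to 3. No knockdown library was as low as any WT library, and the log2 fold change was 1.07 (SE 0.098, adjusted p = 6.43e-05) without WT replicate 1 and 0.88 (adjusted p = 0.15) with it. Slbp, the histone mRNA binding protein, was at 0.45 (adjusted p = 0.00213), and it was at 0.12 with 6 libraries. Cdc6, the partner of Cdt1 in helicase loading, was at -0.30 (adjusted p = 0.0017) and the polymerase subunit gene Pola1 was at -0.31 (adjusted p = 0.0027). With 6 libraries Cdc6 was at -0.28 (adjusted p = 0.308) and Pola1 at -0.03 (adjusted p = 0.958).

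Of 10 later cyclins, their kinase and proliferation markers, 4 rose and 3 fell, with a median of -0.003, or 0.10 with 6 libraries. Ccna2, the S and G2 phase cyclin that follows cyclin E, had 210.0, 189.7 and 190.5 CPM in knockdown replicates 1 to 3, against 342.3, 257.2 and 257.8 CPM in WT replicates 1 to 3. The log2 fold change was -0.40 (SE 0.05, adjusted p = 1.98e-04) without WT replicate 1 and -0.54 (adjusted p = 0.227) with it. The mitotic cyclin gene Ccnb2 was at -0.18 (adjusted p = 0.0263, or 0.0916 once the GC trend was removed). The mitotic kinase genes Plk1 and Aurka were at 0.40 (adjusted p = 6.35e-04) and 0.30 (adjusted p = 9.84e-04). With 6 libraries Ccnb2 was at -0.57 (adjusted p = 0.395), Plk1 at 0.72 (adjusted p = 0.357) and Aurka at 0.17 (adjusted p = 0.601). Once the GC trend was removed, 4 of the 10 rose and 1 fell.

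Of 22 other cyclins and cyclin-dependent kinases, 1 rose and 12 fell, with a median of -0.20 in both fits, beside 16.3% higher and 18% lower over all genes. With the GC trend removed 4 rose and 11 fell. Cdk14, a cyclin Y partner at the membrane, had 94.5, 94.6 and 89.7 CPM in knockdown replicates 1 to 3, against 54.6, 165.7 and 167.0 CPM in WT replicates 1 to 3. WT replicate 1 was the lowest of all, and the log2 fold change was -0.86 (adjusted p = 2.13e-06) without it and -0.48 (adjusted p = 0.579) with it. Cdk16, its relative, had 68.8, 75.6 and 71.5 CPM in knockdown replicates 1 to 3, against 119.1, 123.8 and 133.5 CPM in WT replicates 1 to 3. Here the groups were apart in all 6 libraries, with -0.85 (adjusted p = 7.59e-06) without WT replicate 1 and -0.80 (adjusted p = 0.1) with it. Over all lists, 8 of the 100 genes tested hold a form of the 7-base sequence in the 3' UTR, of which 5 were called lower (Cdk14, Cdk16, Cdk9, Cdc6 and Creb1) and 3 were not called (Cdk1, Foxo1 and Skp2). Of the 92 without it, 22 were called lower and 18 higher. The sequence was picked from these same fold changes, so this tally gives no independent evidence. The riser of the 22 other cyclins and cyclin-dependent kinases was Ccnk, the cyclin of the transcriptional kinases CDK12 and CDK13. It was at 0.29 (adjusted p = 0.00664), and at 0.49 with 6 libraries (adjusted p = 0.328).

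**Figure D5:**
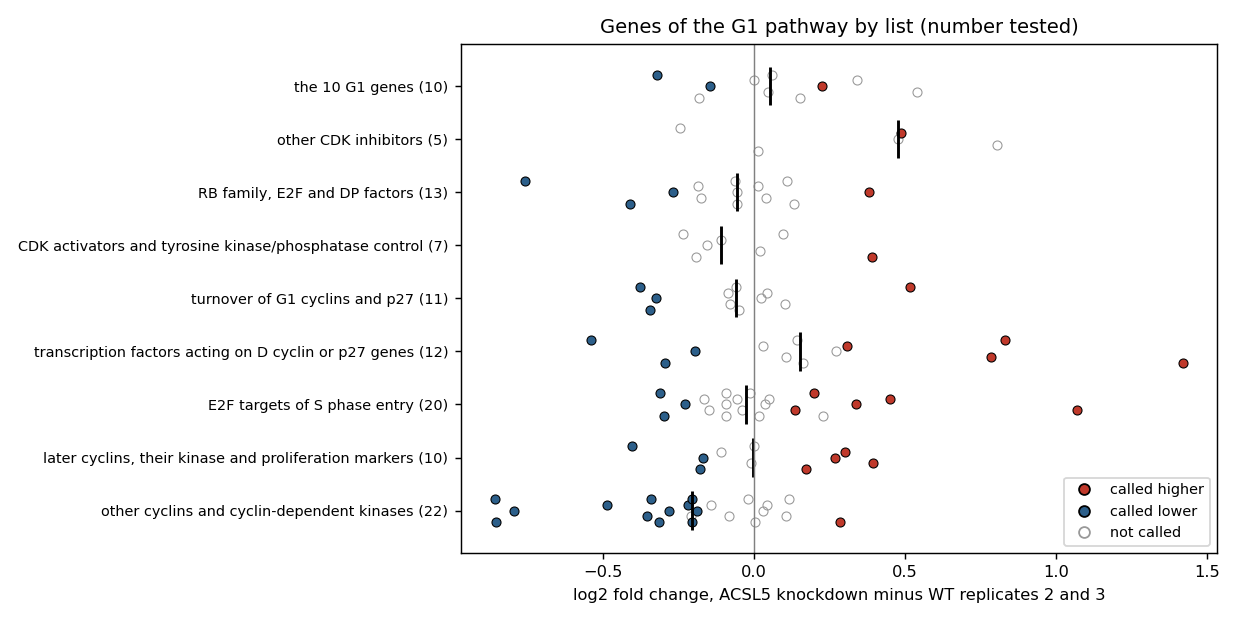
Log2 fold change (ACSL5 knockdown minus WT replicates 2 and 3, horizontal axis) of the 10 G1 genes and of each list of surrounding genes, with called genes filled and the list's median as a bar. The 10 G1 genes lie between -0.32 and 0.54, and 12 of the 22 other cyclins and cyclin-dependent kinases are called lower.

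Cdk4 had the highest mean TPM of the 10 genes over the 6 libraries. The genes whose log2(CPM + 1) profile lay closest to it were Emg1, Prdx6 and Tfpt, with root mean square differences of 0.025, 0.026 and 0.029 over 6 libraries among 10137 genes. That profile has its peak in WT replicate 1. Over all libraries, Cdk4 averaged 230.6 TPM, Ccnd1 173.7, Ccnd2 126.6, Cdk6 88.8, Ccnd3 61.6, Cdkn1b 59.2, Cdkn2c 36.8, Cdk2 33.2, Ccne1 24.4 and Ccne2 13.9 TPM. Neighbours in this order overlapped in their ranges over the 6 libraries, except Ccne1 and Ccne2.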

How the data were processed

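RNA of 6 libraries was compared, 3 ACSL5 knockdown and 3 WT. The authors deposited expected counts per gene, part of them not whole, and a second table of TPM. Tools listed in the submitters' processing notes are fastp, HISAT2, StringTie and DESeq2, with no roles, and the builds listed are human (hg38, GRCh38) although gene IDs are mouse. Quantifier and strandedness: not given in the sources used here.

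Expected counts were rounded, filtered with filterByExpr and scaled by TMM. Groups were compared by quasi-likelihood F tests (edgeR 4.0.16, robust, two-sided, R 4.3.3), with Benjamini-Hochberg adjustment over all genes tested, 14679 with 6 libraries and 15152 with 5, and called below 0.05. Fold changes are knockdown over WT. Counts of Ccne1, Cdkn1b and Cdkn2c were whole in every library. Those of the other 7 genes were not whole in at least 1, so their levels are estimates. The procedure was tested on simulated data.

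Positions, transcripts and 3' UTRs came from GENCODE M21 (GRCm38), promoters from RefSeq (GRCm38.p6), and GC content was known for 96.3% of genes tested with 5 libraries. Genes named are the 10, Acsl5, from each list up to 2 higher and 2 lower called genes of at least 5 CPM without WT replicate 1, and the 3 profiles nearest to the gene of highest mean TPM. Myc, Cdkn1c and, for their 3' UTR site, Cdk1, Cdk9, Foxo1 and Skp2 were named outside this rule. The 10 genes, the lists and the fit of 5 libraries were chosen with earlier results of these data known. Alternatives were other scaling and filters, DESeq2 1.42.0, limma 3.58.1 (voom, and trend on log2 TPM), no robust estimation, a threshold of 0.01, a replicate block, each library left out, and removal of smooth trends (lowess, span 0.3) with GC content or gene length. Quality weights in voom were added after seeing the data.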

Additional observations from a re-analysis of the deposited data

How the results depend on the processing

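The calls of this gene set rest on 1 library. With all 6 libraries, 0 of the 10 genes were called under all alternatives in edgeR, DESeq2 and limma except the fit without WT replicate 1 and limma-voom with quality weights, chosen after seeing the data, which called 3. Leaving out 1 library at a time gave 0 to 3. For the surrounding lists, edgeR called 0 genes with 6 libraries, while DESeq2 called 12, removal of the gene length trend 8 and quality weights 49, beside 7.68%, 6.34% and 40.2% of all genes, and leaving out 1 library gave 0 to 45. Acsl5, just short of a call with 6 libraries, was called in 9 of 21 alternatives. These were DESeq2 (-2.45), limma-voom (-2.43), library totals (-2.31), no filter (-2.40) and no robust estimation (-2.43). Removal of the length trend (-2.60) or the GC trend (-2.39), quality weights (-2.28) and leaving out WT replicate 1 (-2.32) also called it. Leaving out any other library gave -2.50 to -2.38 and no call (adjusted p of 0.28 to 0.486 in edgeR). The TPM settings (adjusted p of 0.0799 to 0.159 in limma) and the replicate block (0.438 in edgeR) were among the others without a call. Without WT replicate 1, where 3 of the 10 genes were called, tests on TPM called 0 with log2(TPM + 1), 1 with log2(TPM + 0.1) and 0 without a filter, a threshold of 0.01 left 1, and leaving out a further library gave 0 to 5. Among the list genes, 45 were called there, the same TPM settings called 19, 19 and 10, and leaving out a further library gave 24 to 50. Some of these fits have a single WT library, whose spread is taken to equal that of the knockdown group.

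Some log2 fold changes changed sign. With 6 libraries, Ccnd1 was at -0.0013 and Ccnd2 at -0.14 with quality weights, and Ccnd2 at -0.043 with the length trend removed. Ccne1 was at 0.018 with library totals, 0.054, 0.056 and 0.054 in the TPM settings, 0.0084 with the length trend removed and 0.17 with quality weights. Ccne2 was at 0.11, 0.13 and 0.11 in the TPM settings. Cdk2 was at 0.11 with library totals, 0.024 without a filter, 0.23, 0.24 and 0.23 in the TPM settings, 0.032 with the length trend removed, 0.022 with the GC trend removed and 0.023 with quality weights. Cdk4 was at 0.24 with quality weights and called there (adjusted p = 0.0127). Leaving out 1 library gave -0.15 to 0.26 for Ccnd2, -0.27 to 0.15 for Ccne1, -0.093 to 0.048 for Cdk2, -0.47 to 0.23 for Cdk4 and -0.13 to 0.54 for Cdkn2c, with Ccnd2 and Cdk4 called at the ends without WT replicate 1. Without WT replicate 1, Ccnd1 was at -0.017 with quality weights, Ccne1 at -0.048, -0.050 and -0.048 in the TPM settings, and leaving out a further library gave -0.025 to 0.045 for Ccnd1 and -0.015 to 0.098 for Cdk2. The cause of these shifts was not tested. Over 6 libraries, log2(TPM + 1), log2(TPM + 0.1) and library totals moved the median of all genes by 0.28, 0.32 and 0.10.

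Deviations from the group means correlated at -0.12, 0.02 and -0.14 for replicates 1, 2 and 3, and none matched its own number best. WT replicate 1, which stood apart, enters the WT mean and so every WT deviation. Whether replicate numbers pair the samples was not tested without that library. With the replicate block, 0 of the 10 genes were called with 6 libraries and 5 without WT replicate 1, with Ccnd1 at -0.035 and Cdk2 at -0.024. The lowest count of the 10 genes was 431, and the part of depth in the results was not tested.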
